A study of Rattus norvegicus with 20 samples.

Results

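MEHP, mono(2-ethylhexyl) phthalate, is the monoester that gut enzymes release from the plasticiser DEHP, and it was set here against its corn oil vehicle in the fetal rat testis. The comparison takes the 4 arrays titled MEHP and the 4 arrays titled control, 8 of the 20 arrays of the study, with every probe that is not a control probe. Pregnant Han Wistar dams received MEHP at 500 mg/kg, or corn oil alone, by gavage once a day from gestation day 12 until day 19, so MEHP and control litters shared strain, vehicle route and days of dosing. Each array was hybridised with RNA pooled from the testes of at least 3 pups (6 testes) of a litter, and the remaining 12 arrays hold DEHP, TOTM and EHO at the same dose. All 4 arrays of a group share a slide, and no slide holds 2 groups, so an effect of the slide cannot be told apart from one of the compound. In a pool of whole testes, fewer cells of a type and less RNA per cell cannot be told apart either. Testis markers were well above background on all 8 arrays, with Amh between 5.22 and 6.10 on MEHP arrays and between 5.28 and 5.83 on control arrays (log2 signal, scaled so that the 75th percentile of an array is 0).

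Fetal Leydig cells make testosterone from cholesterol. SCARB1 takes cholesterol up from lipoproteins, STAR moves it into the mitochondrion, CYP11A1 (with its electron carrier ferredoxin, FDX1) cuts the side chain, and HSD3B and CYP17A1 act on the product. Cells can also build cholesterol themselves, first through the mevalonate pathway and then from squalene onward, and SREBP transcription factors raise both sets of enzymes when sterols are scarce. Phthalates with side chains of this kind are known, from earlier work in fetal rats, to lower testosterone output and the transcripts of these genes.

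Promoters of 4 cholesterol synthesis genes that lay well below control on MEHP 1, 2 and 4, a pair from each part of the pathway, are shown as examples, with that of Cyp11a1 for contrast, since NF-Y, which works beside SREBP, binds CCAAT boxes. The sequences come from RefSeq on the GRCr8 build, run 250 bases before to 50 after the annotated start, and carry CCAAT or its reverse complement ATTGG in capitals. The windows are chr2:53382054-53382353 on the plus strand (Hmgcs1), chr17:66547475-66547774 on the minus strand (Idi1), chr1:212789492-212789791 on the minus strand (Tm7sf2), chrX:16971212-16971511 on the plus strand (Ebp) and chr8:67318415-67318714 on the plus strand (Cyp11a1).
Hmgcs1: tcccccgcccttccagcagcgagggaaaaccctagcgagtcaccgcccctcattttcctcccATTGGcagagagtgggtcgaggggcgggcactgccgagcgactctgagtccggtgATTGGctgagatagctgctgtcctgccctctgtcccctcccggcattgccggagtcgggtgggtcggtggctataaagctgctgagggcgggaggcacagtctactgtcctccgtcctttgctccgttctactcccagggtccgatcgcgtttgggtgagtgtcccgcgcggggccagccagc
Idi1: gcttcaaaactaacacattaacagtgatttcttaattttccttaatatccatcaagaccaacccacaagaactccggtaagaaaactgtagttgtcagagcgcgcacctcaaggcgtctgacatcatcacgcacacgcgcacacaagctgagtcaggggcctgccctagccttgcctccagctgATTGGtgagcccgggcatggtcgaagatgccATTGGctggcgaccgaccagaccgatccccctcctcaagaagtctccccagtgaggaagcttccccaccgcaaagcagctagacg
Tm7sf2: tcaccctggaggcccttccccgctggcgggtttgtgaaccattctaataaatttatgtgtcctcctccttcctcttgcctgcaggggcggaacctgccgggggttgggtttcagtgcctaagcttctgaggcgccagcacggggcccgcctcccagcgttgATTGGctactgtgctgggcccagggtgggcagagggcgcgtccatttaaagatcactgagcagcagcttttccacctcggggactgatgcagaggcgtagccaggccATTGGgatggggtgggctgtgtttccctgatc
Ebp: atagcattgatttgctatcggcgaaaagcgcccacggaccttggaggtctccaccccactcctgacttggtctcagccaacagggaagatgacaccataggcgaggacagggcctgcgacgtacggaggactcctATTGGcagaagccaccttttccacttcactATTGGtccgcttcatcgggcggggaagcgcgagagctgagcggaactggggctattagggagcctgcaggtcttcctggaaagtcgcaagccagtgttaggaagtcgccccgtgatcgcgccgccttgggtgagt
Cyp11a1: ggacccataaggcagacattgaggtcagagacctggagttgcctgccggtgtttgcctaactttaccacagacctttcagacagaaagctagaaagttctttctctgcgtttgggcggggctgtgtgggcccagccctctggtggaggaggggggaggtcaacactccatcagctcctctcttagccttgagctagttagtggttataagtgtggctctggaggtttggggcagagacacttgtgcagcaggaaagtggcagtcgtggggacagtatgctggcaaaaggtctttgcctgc
The motif stands 2 times in each of the first 4 windows and not in that of Cyp11a1. Of all 33469 promoters in the table, 12549 (37.5%) hold it on either strand. It occurs in 6 of the 7 mevalonate pathway promoters found there (85.7%) and in 7 of 9 from squalene onward (77.8%), against 3 of 10 of the steroidogenic enzymes. The promoters of Acat2, Cyp51 and Dhcr7, genes that also lay below control, do not hold it, so the examples shown do not stand for the whole pathway. Lists with no called gene and with medians near that of all genes hold it about as often, with 10 of 13 endoplasmic reticulum stress genes (76.9%) and 11 of 16 cell cycle genes (68.8%). A match is a description of the letters and says nothing of binding.

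The 4 MEHP arrays were not alike, and this bears on every value that follows. For each pair of arrays the SD of the log2 difference over 17495 single-spot probes was divided by the SD expected from 152 probes spotted 10 times, so a ratio near 1 is the noise of repeated spots. MEHP 1 and MEHP 2 gave 0.90, the lowest of 190 pairs, and they differed by less than the spot noise; their mean entered as a single sample, and MEHP thus has n = 3. MEHP 4 lay at 2.26 and 2.28 from them, close to the median of 2.28 over the 30 pairs within groups.

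MEHP 3 stood apart from its own group. Its ratio to the other MEHP arrays was between 3.97 and 4.45, while its ratio to control 2 was 1.70, and by the median absolute deviation, which large single differences do not move, that pair was the closest of all pairs from different groups, at 1.0. Control 2 in turn lay at 3.28 to 3.69 from the other control arrays, which were 1.88 to 2.02 from one another. Genes unrelated to the treatment lists show the likeness: albumin (Alb) was at 2.17 on MEHP 3 and 2.05 on control 2, and between -4.36 and -1.60 on the other 6 arrays. MEHP 4 was likewise close to DEHP 3, at 1.88. The cause of these similarities was not tested, and results that rest on MEHP 3 are given with and without it. That array is known from these same data to fall less in Leydig cell and cholesterol synthesis genes. A call made without it is thus not independent evidence.

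**Figure D1:**
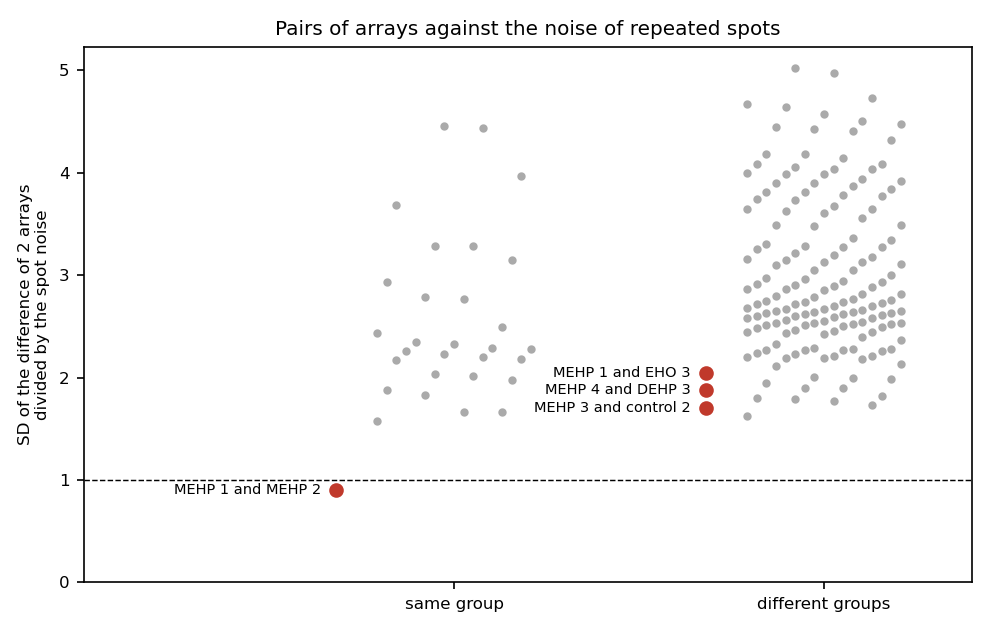
Each point is 1 of the 190 pairs of arrays, and the vertical axis is the SD of their log2 difference divided by the noise of repeated spots (dashed line at 1). MEHP 1 and MEHP 2 lie under the line at 0.90, and MEHP 3 with control 2 lies at 1.70, among the lowest pairs of different groups.

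The control slide also differed in a technical flag. The scanner software marked 458 to 469 spots as non-uniform on each control array, against 0 to 9 on the arrays of the other groups, and 383 of the 389 spots marked on all 4 control arrays were among the 500 brightest. Those spots were set aside, so very bright genes such as Cyp17a1 and Insl3 have few or no control values. The share of probes well above background was 66% to 73.9% on MEHP arrays and 65.7% to 79.8% on control arrays.

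Levels are log2 processed signals minus the 75th percentile of their array, and a difference of 1 is 2-fold. Genes count as called where limma, fitted over all 5 groups, gave a Benjamini-Hochberg adjusted p under 0.05. Of 23901 genes tested, 227 were called (0.950%), 222 of them higher with MEHP (0.929%) and 5 lower (0.0209%). At an unadjusted p under 0.05 there were 1274 genes, where 1195 would be found with no difference at all. This number depends on which groups share the estimate of spread. Without the EHO arrays in the fit, 3176 of 23901 genes were at that p, and 258 were called higher and 53 lower. With MEHP and control arrays alone, 2463 genes were at that p, and 112 were called higher and 4 lower. Without MEHP 4 the number called was 146. Leaving out MEHP 3 gave 164 higher (0.686%) and 37 lower (0.155%), and leaving out MEHP 1 and 2 gave 165 higher (0.690%) and 3 lower (0.0126%). The median difference over all genes was -0.06, and 14419 genes lay below control against 9477 above.

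Cholesterol entry and the first steps of steroid synthesis were lower on MEHP 1 and 2 and, less so, on MEHP 4, but were at control level on MEHP 3, and no gene of these steps was called in this fit of all arrays. Star, which carries cholesterol into the mitochondrion, was at -0.10, -0.03, 3.21 and 1.71 on MEHP 1 to 4, against 3.26, 3.19, 3.66 and 3.09 on control 1 to 4. MEHP 1 and 2 were about 10.3-fold below the control mean and MEHP 4 was 3.0-fold below it, while MEHP 3 lay inside the control range. The difference was -1.68 ± 0.50 (SE, n = 3 and 4; limma adjusted p = 0.21). Without MEHP 3 it was -2.48 ± 0.40 (adjusted p = 0.00434), and with control 2 left out as well it was -2.51 (adjusted p = 0.0117). With MEHP 3 and 4 alone it was -0.84 (adjusted p = 0.97). Star was called by limma with all arrays under 3 other settings. The difference was -1.56 with normexp and quantile normalization (adjusted p = 0.0486) and -1.83 with array weights (adjusted p = 0.0059). It was -2.10 with MEHP 1 and 2 as separate samples (adjusted p = 0.0489), but that fit counts apart 2 arrays that differ by less than the spot noise. The weights of MEHP 3 (0.41) and control 2 (0.32) were low, against 4.42 for MEHP 4. Array weights, under which 3.20% of all genes were called lower, also gave calls for Scarb1 (adjusted p = 0.0458) and Fdx1 (adjusted p = 0.0248).

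Scarb1, the lipoprotein receptor that feeds steroid cells, repeated this order at 2.55, 2.68, 5.87 and 4.17 with MEHP, against 5.15, 5.65, 5.08 and 5.02 in controls. MEHP 3 was the highest of all 8 arrays. The difference was -1.0 ± 0.48 (limma adjusted p = 0.94) with all arrays and -1.83 ± 0.34 (adjusted p = 0.0128) without MEHP 3. A further Scarb1 probe gave -1.13. Over the 20 measured genes of cholesterol import and uptake, 13 lay below control and 7 above, with a median of -0.13, against -0.06 over all genes, and none was called.

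Among the enzymes, Cyp11a1, which makes pregnenolone, was at 1.09, 1.18, 3.40 and 2.89 with MEHP, against 3.47, 3.27, 3.97 and 3.47 in controls. MEHP 1, 2 and 4 were below every control array and MEHP 3 was not. Its difference was -1.07 ± 0.37 (limma adjusted p = 0.43), and leaving out MEHP 3 gave -1.53 (adjusted p = 0.059). With MEHP 3 and 4 left out it was -2.41, which rests on 1 MEHP sample and is given without a test. Fdx1 was at 3.26, 3.39, 5.80 and 4.44 with MEHP, against 5.33, 5.91, 5.72 and 5.31, a difference of -1.04 ± 0.40 (adjusted p = 0.62) that became -1.68 ± 0.32 (adjusted p = 0.0159) without MEHP 3.

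Hsd3b1, of the next step, was at 3.18, 3.17, 5.46 and 4.88 with MEHP, against 5.12, 5.60, 5.22 and 5.08 in controls. Only MEHP 1, 2 and 4 were under the control range, MEHP 4 by a small margin, and the difference was -0.75 ± 0.36 (limma adjusted p = 0.94). Hsd3b2, a near copy whose probe may share signal with Hsd3b1, differed by -0.58 ± 0.34. Of the 11 steroidogenic genes tested, 9 lay below control and 2 above (median -0.38), and none was called. Their median was -0.64 and -0.63 on MEHP 1 and 2, 0.01 on MEHP 3 and -0.27 on MEHP 4. Without MEHP 3, 1 of the 11 was called lower, where 0.155% of all genes were. The fit without MEHP 3 and 4 holds 1 MEHP sample, so its calls are not given.

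Cyp17a1, the enzyme that turns progestins into androgens, could not be tested, because none of the 4 control arrays had an unmarked spot for it. With those spots kept, its level was 4.12, 4.16, 6.45 and 5.63 with MEHP, against 5.06, 5.32, 5.42 and 4.93 in controls. MEHP 1 and 2 were below every control array, and MEHP 3 and 4 were above every one. All 4 control values come from marked spots, so where the MEHP arrays lie against control is uncertain for this gene. The table that the authors deposited gives the same probe a signed fold of -4.4 against control.

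**Figure D2:**
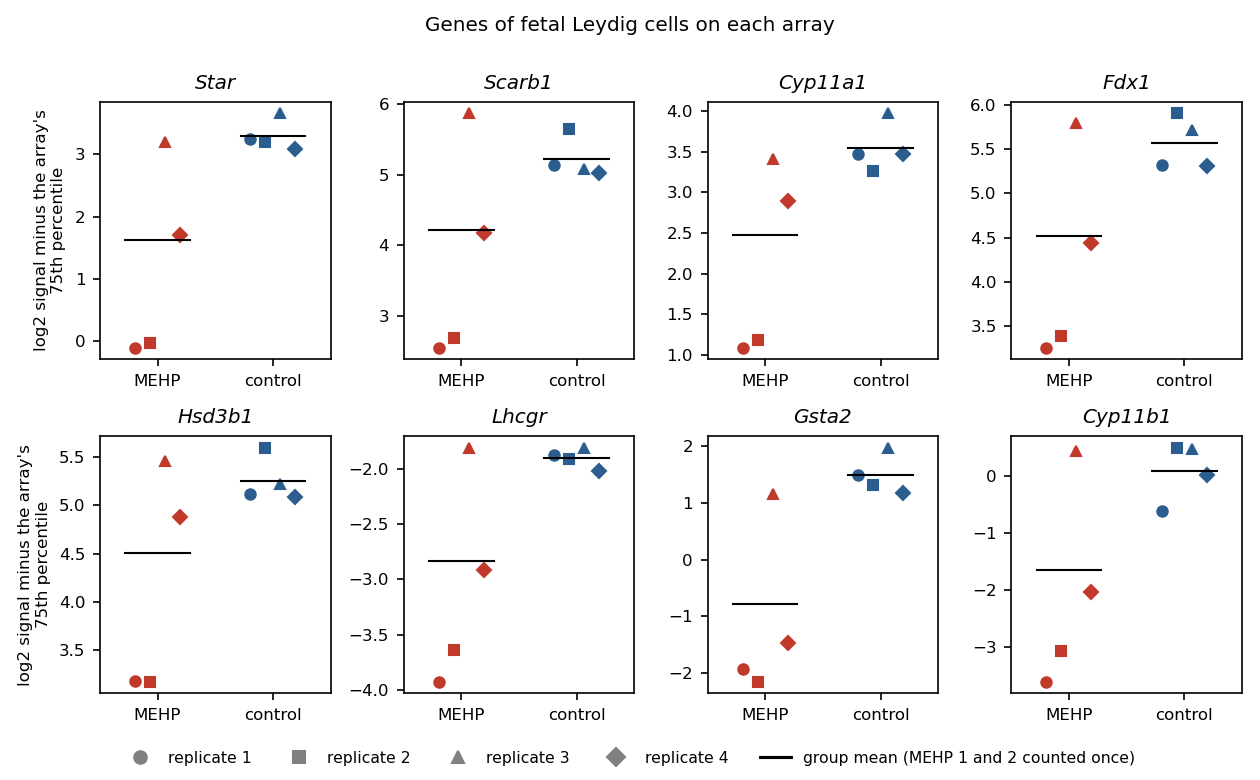
Levels of 8 genes on each array (log2 signal minus the 75th percentile of the array), MEHP at the left and control at the right of each panel, with the group mean as a line. MEHP 1 and 2 lie lowest in most panels, MEHP 4 lies between them and the controls, and MEHP 3 lies with the controls, as for Star at 3.21.

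The wider set of fetal Leydig cell markers followed the same split. Of 22 measured markers 19 lay below control, none was called, and the median was -0.48. By array the median was -1.15 on MEHP 1, -1.14 on MEHP 2, 0.12 on MEHP 3 and -0.39 on MEHP 4. The summed level of 21 markers, on a linear scale, ran between 79.4 and 247.6 on MEHP arrays and between 191.3 and 243.8 on control arrays. Without MEHP 3, 4 of the 22 were called lower (Star, Scarb1, Lhcgr and Cyp11b1), where 0.155% of all genes were.

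Insl3, the Leydig hormone that guides testis descent, was at 3.45, 3.53, 5.95 and 5.54 with MEHP, against 5.48 and 5.47 on control 1 and 4, the only control arrays with an unmarked spot. MEHP 1 and 2 were below both controls and the other MEHP arrays were above both controls, which gave -0.49 ± 0.47 (limma adjusted p = 0.98) overall. With the marked spots kept, control 2 and 3 were at 6.2 and 6.33 and the difference was -0.88. Inha, the inhibin alpha subunit that Leydig and Sertoli cells both make, differed by -0.51 ± 0.22 (adjusted p = 0.82).

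Lhcgr, the LH receptor, was at -3.92, -3.64, -1.81 and -2.92 with MEHP, against -1.87, -1.91, -1.82 and -2.02 in controls, and was above background on only 2 of the 4 MEHP arrays. The difference was -0.93 ± 0.32 (limma adjusted p = 0.41) with all arrays and -1.44 ± 0.25 (adjusted p = 0.0072) without MEHP 3. Nr5a1, the nuclear receptor SF1 that switches on steroid genes, differed by -0.28 ± 0.26 (adjusted p = 0.98), and by 0.07 under normexp with quantile normalization. Cebpb, a transcription factor active at the Star promoter, was below every control array on all 4 MEHP arrays, with a difference of -0.57 ± 0.18 (adjusted p = 0.27). The prolactin receptor Prlr differed by -0.62 ± 0.23 and Nr0b1, which represses SF1 targets, by -0.47 ± 0.23. Of 18 regulators and receptors 13 lay below control, the median was -0.20, and none was called.

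Genes typical of the adrenal cortex, some of which fetal Leydig cells also express, all lay below control (7 of 7, median -0.47), and none was called. Cyp11b1, the 11-beta-hydroxylase, was at -3.60, -3.06, 0.43 and -2.03 with MEHP, against -0.62, 0.49, 0.47 and 0.01 in controls. MEHP 1, 2 and 4 were below every control array, and the difference was -1.73 ± 0.61 (limma adjusted p = 0.48), or -2.76 ± 0.45 (adjusted p = 0.0050) without MEHP 3. Mrap, an accessory protein of the ACTH receptor, was at -0.16, -0.05, 2.44 and 0.96 with MEHP, against 1.91, 2.45, 2.20 and 2.09, a difference of -1.06 ± 0.41 (adjusted p = 0.63). Akr1b7 differed by -0.88 ± 0.54 (adjusted p = 0.98).

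In the cholesterol synthesis genes MEHP 4 lay with MEHP 1 and 2, and MEHP 3 lay nearer control, but none of these genes was called in the fit of all arrays. With the arrays kept and normexp with quantile normalization in place of the percentile, 5 of the 10 mevalonate pathway genes (Acat2, Fdps, Hmgcs1, Idi1 and Mvd) and 5 of the 11 from squalene onward (Cyp51, Dhcr7, Ebp, Sc5d and Tm7sf2) were called lower, where 0.255% of all genes were. With array weights, which give MEHP 3 and control 2 low weights, 9 of the 10 and 7 of the 11 were, where 3.20% of all genes were. All 10 mevalonate pathway genes lay below control (median -0.49), and 5 of the 9 with values on all 8 arrays were lower on every MEHP array than on any control array; over all genes that share was 4.24%. By array the median was -0.74, -0.68, -0.15 and -0.64 on MEHP 1 to 4.

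Hmgcs1, which makes HMG-CoA, was at 4.37, 4.41, 5.74 and 4.60 with MEHP, against 5.52, 5.83, 5.65 and 5.51 in controls. MEHP 1, 2 and 4 were below every control array and MEHP 3 was among them; the difference was -0.72 ± 0.26 (limma adjusted p = 0.50), or -1.14 ± 0.21 (adjusted p = 0.0114) without MEHP 3. Idi1, the isopentenyl diphosphate isomerase, was at 2.65, 2.68, 3.30 and 2.65 with MEHP, against 3.52, 3.32, 3.81 and 3.82. All MEHP arrays were lower than all controls, MEHP 3 only just below control 2, and the difference was -0.74 ± 0.19 (adjusted p = 0.11).

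Mvd, the mevalonate diphosphate decarboxylase, was at 2.54, 2.62, 3.14 and 2.76 with MEHP, against 3.24, 3.36, 3.57 and 3.42, with no overlap and a difference of -0.57 ± 0.13 (limma adjusted p = 0.054). Acat2, at the first step, differed by -0.66 ± 0.21 (adjusted p = 0.28) with no overlap. Fdps, the farnesyl diphosphate synthase, differed by -0.56 ± 0.21 (adjusted p = 0.55) with 1 control spot set aside. Without MEHP 3, Acat2, Hmgcs1, Idi1 and Mvd were called lower.

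From squalene onward all 11 genes lay below control (median -0.44), and 6 of them did not overlap with control, where 4.24% of all genes were lower on every MEHP array than on any control array. Tm7sf2, a sterol C14 reductase, was at 0.92, 0.99, 2.67 and 1.22 with MEHP, against 2.89, 2.83, 3.09 and 2.94 in controls. Every MEHP array was below every control array, MEHP 3 least, and the difference of -1.33 ± 0.33 was the largest of the 11 (limma adjusted p = 0.082); without MEHP 3 it was -1.85 ± 0.26 (adjusted p = 0.0015). Sc5d, the lathosterol desaturase, was at -1.02, -1.07, -0.59 and -0.74 with MEHP, against -0.24, -0.48, 0.05 and -0.11, a difference of -0.60 ± 0.14 (adjusted p = 0.0505). Dhcr7, of the last step, was at 1.67, 1.72, 1.95 and 2.08 with MEHP, against 2.68, 2.16, 3.01 and 2.57, a difference of -0.69 ± 0.17 (adjusted p = 0.071).

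MEHP 3 was below the control mean for these last 3 genes and also below control 2, its near neighbour. Over the 11 genes the difference of MEHP 3 and control 2 had a median of -0.12 and was negative for 11 of 11. Over all genes the median was -0.03, with 13387 of 23833 negative. This was not particular to cholesterol synthesis: endothelial genes had -0.14 (13 of 13 negative) and erythroid genes -0.16 (9 of 10). Only the muscle list had a positive median (0.05). Cyp51, the lanosterol demethylase, differed by -0.93 ± 0.25 (limma adjusted p = 0.14) and Ebp, the sterol isomerase, by -0.79 ± 0.22 (adjusted p = 0.16). Without MEHP 3, 4 of the 11 were called lower (Cyp51, Ebp, Sc5d and Tm7sf2), and without MEHP 3 and control 2, 5 were, Dhcr7 being added; 0.155% of all genes were called lower in each of these fits.

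**Figure D3:**
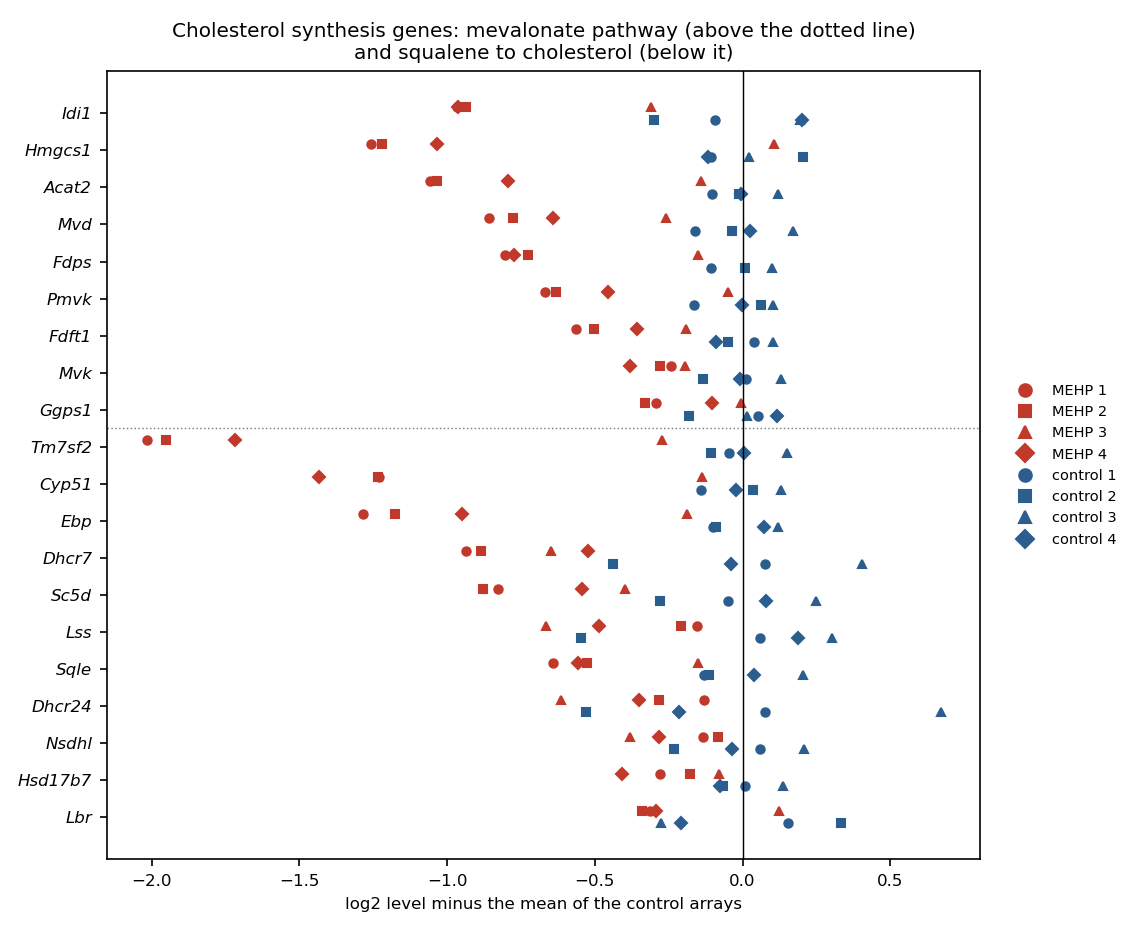
Difference of each array from the mean of the control arrays (log2), for 9 of the 10 mevalonate pathway genes above the dotted line and 11 genes of the steps from squalene to cholesterol below it. MEHP 1, 2 and 4 lie furthest left for most genes, as far as -2.01 for Tm7sf2 on MEHP 1, and MEHP 3 lies nearest the controls.

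The sterol sensors showed no common shift, with a median of -0.05 over 9 genes and none called. Insig1, which retains SREBP in the endoplasmic reticulum and is itself an SREBP target, was at 3.16, 3.26, 4.64 and 3.13 with MEHP, against 4.14, 4.80, 4.18 and 4.27. MEHP 1, 2 and 4 were below every control array, the difference was -0.69 ± 0.30 (limma adjusted p = 0.80), and 3 further probes gave -0.67 to -0.76. Srebf2, which encodes SREBP2, differed by -0.25 ± 0.19 (adjusted p = 0.98), and by 0.03 under normexp with quantile normalization.

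Scd, the stearoyl-CoA desaturase that makes monounsaturated fatty acids, fell and was the only called gene at least 2-fold lower. It was at -2.13, -2.31, -1.47 and -2.58 with MEHP, against -1.02, -1.14, -1.01 and -0.81 in controls. All 4 MEHP arrays were below all controls and MEHP 4 was the lowest, so that Scd did not follow the order seen for Star. The difference was -1.10 ± 0.20 (limma adjusted p = 0.00846), 2.14-fold lower, and -1.03 ± 0.23 (adjusted p = 0.057) without MEHP 1 and 2. With normexp and quantile normalization it was -0.31 (adjusted p = 0.29). Of the 17 fatty acid synthesis genes, 11 lay below control and Scd alone was called; the delta-6 desaturase Fads2 differed by -0.51 ± 0.15 (adjusted p = 0.24), Fads1 by -0.38 ± 0.14 (adjusted p = 0.55) and Acacb by -0.49 ± 0.51.

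Fatty acid oxidation genes and other targets of PPAR alpha, the receptor through which phthalates act in rodent liver, showed no called gene: 18 of 26 lay below control, the median was -0.08. Cd36, a fatty acid transporter, was at -1.63, -1.61, 0.55 and -0.10 with MEHP, against -0.04, 0.63, -0.23 and -0.04. It was low on MEHP 1 and 2 only, with a difference of -0.47 ± 0.34 (limma adjusted p = 0.98). Cpt1b, the muscle-type mitochondrial importer of fatty acids, differed by 0.44 ± 0.27 and Fabp4 by -0.40 ± 0.54.

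The remaining genes called lower were Gdf6, Oaz1, Rdh11 and LOC309949. Gdf6, a BMP family ligand, was at -2.42, -2.92, -2.77 and -2.74 with MEHP, against -1.69, -1.46, -1.93 and -1.89, a difference of -0.98 ± 0.19 (limma adjusted p = 0.0155). Gdf6 means with DEHP, TOTM and EHO were -2.25, -2.40 and -2.24, also below the control mean of -1.74. For this gene too, slide and compound cannot be told apart. Rdh11, a retinal reductase, was at -1.69, -1.93, -1.96 and -2.16 with MEHP, against -1.07, -1.46, -1.14 and -1.11, a difference of -0.78 ± 0.16 (adjusted p = 0.0167). In both genes MEHP 3 lay with the other MEHP arrays and no array overlapped with control.

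Oaz1, antizyme, which curbs polyamine synthesis, was at 6.70, 6.75, 6.46 and 6.59 with MEHP, against 7.41 and 7.35 on control 2 and 3, and the spots of control 1 and 4 were set aside. Its difference was -0.79 ± 0.13 (limma adjusted p = 0.0054), and -0.57 with the marked spots kept. The Oaz1 means with DEHP, TOTM and EHO were 6.63, 6.54 and 6.91, also below the control mean of 7.38. Slide and compound cannot be told apart here. LOC309949, a gene without a symbol, was at 6.34, 6.4, 6.48 and 6.38 with MEHP, against 7.02, 7.11, 6.96 and 6.71 (-0.54 ± 0.12, adjusted p = 0.042). Leaving out single arrays or changing the scaling took the call from each of the 5 at least once.

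Gsta2, an alpha-class glutathione transferase abundant in steroid cells, had the largest difference of any list member. It was at -1.92, -2.15, 1.16 and -1.47 with MEHP, against 1.49, 1.32, 1.98 and 1.18 in controls. MEHP 1, 2 and 4 were 7.80-fold or more below the control mean, and MEHP 3 was just under the lowest control. The difference was -2.27 ± 0.53 (limma adjusted p = 0.052), and -3.24 ± 0.33 (adjusted p = 0.00021) without MEHP 3. It was called under 13 of 28 other settings. A further probe was above background on only 2 of the 4 MEHP arrays. Of 14 glutathione transferases 10 lay below control with a median of -0.06, among them Gsto1 (-0.47 ± 0.18, adjusted p = 0.64) and Gsta3 (-0.43 ± 0.26, adjusted p = 0.98), and none was called.

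The oxidative stress and xenobiotic list had a median of -0.07 over 19 genes with none called. Ephx1, the microsomal epoxide hydrolase, was at -0.40, -0.37, 1.60 and 1.22 with MEHP, against 1.28, 1.82, 1.20 and 1.18, low on MEHP 1 and 2 alone. The aryl hydrocarbon receptor Ahr differed by -0.55 ± 0.34 (limma adjusted p = 0.98). Endoplasmic reticulum stress (15 genes, median -0.08), heat shock (10 genes, -0.04), immediate early genes (21 genes, 0.02) and cell cycle genes (21 genes, 0.04) held no called gene; Hspa4 differed by 0.39 ± 0.21 and Mcm7 by 0.21 ± 0.18.

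No marker of Sertoli cells or gonocytes was called. The Sertoli cell list had a median of 0.10, with 16 of 22 above control. Amh, the hormone that removes the Müllerian ducts, was at 6.01, 6.10, 5.22 and 6.03 with MEHP, against 5.58, 5.28, 5.83 and 5.50 (0.22 ± 0.19, limma adjusted p = 0.98). Sox9, which drives Sertoli fate, differed by -0.32 ± 0.41 (adjusted p = 0.98), the FSH receptor Fshr by -0.44 ± 0.40 and the inhibin subunit Inhbb by 0.30 ± 0.23. The gonocyte list had a median of 0.06 over 16 genes, with Ddx4 at 0.15 ± 0.17, Kit at -0.48 ± 0.44 and Sycp3, a synaptonemal complex protein, at 0.36 ± 0.17 (adjusted p = 0.91). By array the gonocyte median was 0.30, 0.40, -0.29 and -0.01 on MEHP 1 to 4, so it was above control on the 2 arrays with the lowest Leydig markers; whether the 2 are linked was not tested.

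Peritubular and interstitial genes had a median of -0.03 over 17. Actg2, the enteric smooth muscle actin, was higher on every MEHP array than on any control array, at 1.39, 1.43, 1.52 and 1.97 against 0.90, 0.73, 1.16 and 1.0, but was not called (0.68 ± 0.20, limma adjusted p = 0.19). Lum, lumican, differed by 0.45 ± 0.38, and Nr2f2, a marker of interstitial progenitors, by -0.09 ± 0.20 (0.08 under median scaling). Actc1, the cardiac actin, rose: it was at 0.87, 1.0, 0.61 and 1.07 with MEHP, against 0.07, -0.38, 0.00 and -0.12, with no overlap (0.98 ± 0.18, adjusted p = 0.0080). A further Actc1 probe near background gave -0.11. Of 12 muscle genes 1, Actc1, was called, and the median of the list was -0.03.

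Other tissues and blood that a dissection could carry were read from their own lists. The mesonephric duct list had a median of 0.13 over 13 genes, with Pax2, a duct transcription factor, at -0.57, -0.59, -0.71 and -0.81 with MEHP, against -1.12, -1.46, -1.22 and -1.17, above every control but not called (0.54 ± 0.13, limma adjusted p = 0.084). E-cadherin (Cdh1) was at 0.41 on MEHP 3 and 0.43 on control 2, and between -1.38 and -0.54 on the other arrays. Endothelial genes (13, median -0.20), macrophage and leukocyte genes (11, 0.00) and retinoid genes (15, 0.01) held no call but Rdh11; Aldh1a2, a retinoic acid synthesising enzyme, differed by 0.94 ± 0.32 (adjusted p = 0.39). Erythroid genes ran the other way on MEHP 4, with medians of -0.48, -0.47, -0.09 and 0.48 on MEHP 1 to 4, Hbe1, an embryonic globin, being at 2.69, 2.70, 3.06 and 3.97 with MEHP, against 3.55, 3.15, 3.09 and 3.83, and Tal1 differing by -0.37 ± 0.14.

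**Figure D4:**
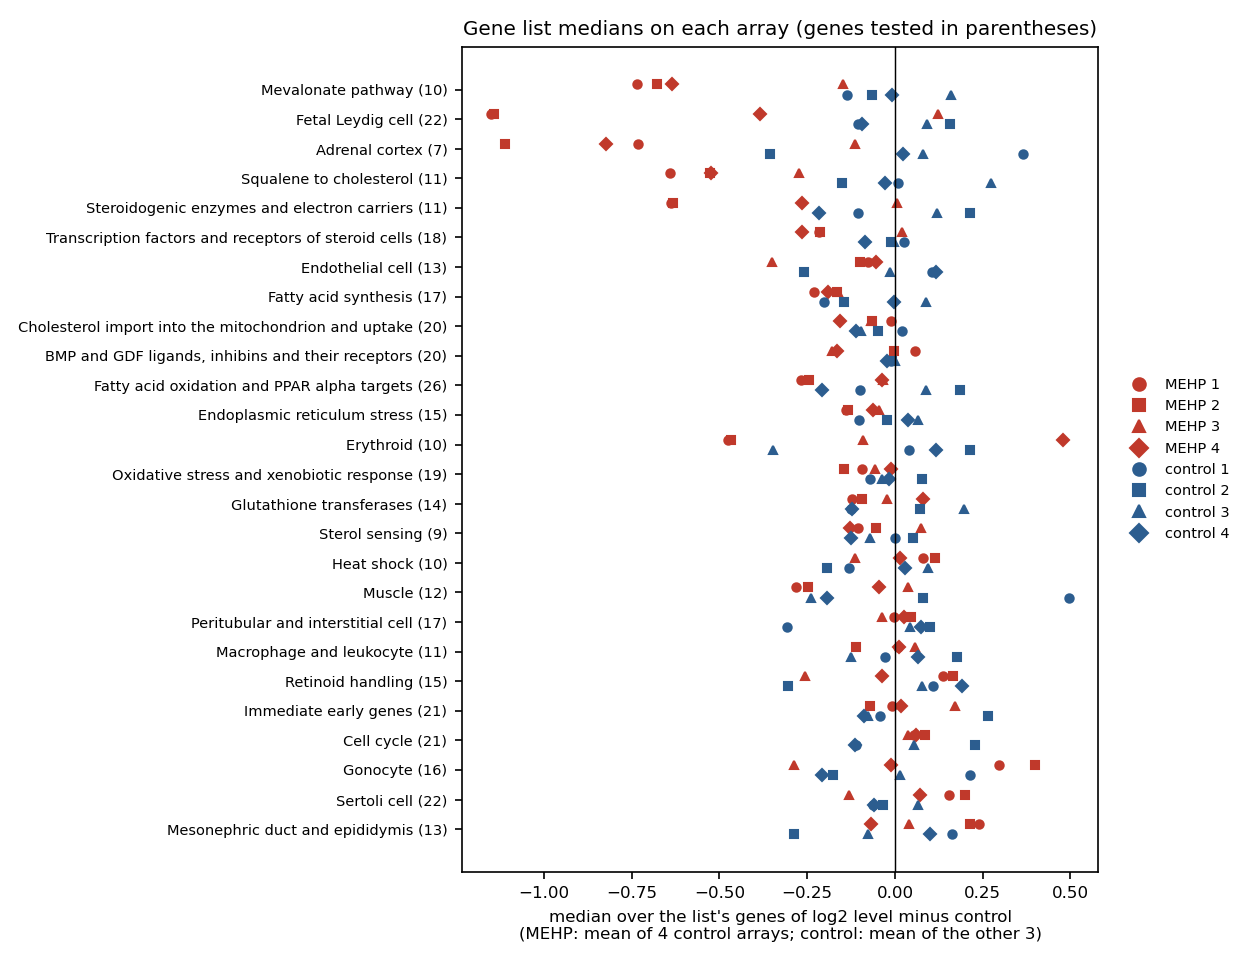
Median over each gene list of the log2 difference of 1 array from the control mean (for a control array, from the mean of the other 3), MEHP in red and control in blue. The mevalonate, fetal Leydig, adrenal and squalene lists lie to the left on MEHP 1, 2 and 4, with -1.15 for fetal Leydig genes on MEHP 1, and most other lists lie within the spread of the control arrays.

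The 222 genes that rose were mostly transcripts without a symbol. They numbered 184 without a symbol and 38 with one, 94 of the 222 were at least 2-fold higher, and in 220 every MEHP array was above every control array (695 of 23769 genes, or 2.92%, over the whole comparison). Most were not dim probes: 208 were well above background on all 8 arrays, and the median control level of the 222 was 0.03, against -0.87 over all genes. The rest were above background on every MEHP array but not on every control array. They passed the filter only through groups other than control, so their p-values are no separate support. Medians of the 222 above the control mean were 0.78, 0.88, 1.03 and 0.93 on MEHP 1 to 4. Since the genes were chosen by a rise over these same arrays, a rise on each array follows largely from the choice and is given as a description.

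The steepest rises with a symbol included transcripts of ribosomal protein copies. Rpl29-ps23 was at 2.92, 3.61, 4.44 and 3.96 with MEHP, against 1.17, 1.79, 2.05 and 2.10, a rise of 2.11 ± 0.38 (limma adjusted p = 0.0080). Rpl37al2 was at 3.69, 4.15, 4.15 and 4.25, against 1.22, 1.68, 2.74 and 2.76, a rise of 2.01 ± 0.40 (adjusted p = 0.0167), and Rpl23a-ps6 rose by 1.56 ± 0.26 (adjusted p = 0.0033). Such copies are nearly identical to their parent genes, and which copy the probe measured was not tested.

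Ppp1r14bl, a paralog of a phosphatase inhibitor gene, had the smallest adjusted p. It was at -0.78, -0.67, -0.82 and -0.75 with MEHP, against -2.45, -2.61, -2.29 and -2.07 in controls. The MEHP arrays lay within a narrow band more than 1 unit above the highest control, and the rise was 1.59 ± 0.12 (limma adjusted p = 8.4e-06).

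Supt16h, a subunit of the FACT histone chaperone, was at 0.64, 0.82, 0.97 and 0.74 with MEHP, against -0.69, -0.36, -0.86 and -0.25 (1.35 ± 0.19, limma adjusted p = 0.00078), but its other probes gave 0.09 and 0.24. Ranbp2, a nuclear pore protein, rose by 1.27 ± 0.19 (adjusted p = 0.0012), Nsmce2, a SUMO ligase of the SMC5/6 complex, by 1.15 ± 0.19 (adjusted p = 0.0033) and Rchy1, a ubiquitin ligase, by 1.62 ± 0.36 (adjusted p = 0.0367). Nudt9, an ADP-ribose pyrophosphatase, rose by 1.03 ± 0.23 (adjusted p = 0.0365), Hint3, a nucleotide hydrolase seen above background on 2 control arrays, by 1.55 ± 0.30 (adjusted p = 0.0146), and the olfactory receptor Or9i1b by 1.05 ± 0.22 (adjusted p = 0.025). Rchy1 was above background on 3 control arrays. Hint3 and Rchy1 were thus tested only because a group other than control showed them above background on all its arrays. Their p-values are no separate support.

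For 4 named genes no control array was above background, so only a bound can be given. It is the MEHP mean set against the higher, on each control array, of the probe's own signal and the lowest signal among probes above background. Gtse1, a cell cycle protein, was at least 2.50-fold higher (adjusted p = 3.15e-05), Dhx16, an RNA helicase of splicing, at least 2.35-fold (adjusted p = 0.026), Ergic2, of the secretory pathway, at least 1.87-fold (adjusted p = 0.00014) and the olfactory receptor Or12e9 at least 1.72-fold (adjusted p = 0.0155), all in limma. Each was tested only because the arrays of a group other than control showed it above background, so its p-value is no separate support. Where called genes had further kept probes these often differed in size or sign: Calca -0.16, Jkampl -0.77 and Morc2 0.36.

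Of the genes without a symbol, RGD1564320 rose most. It was at 1.77, 2.03, 2.20 and 2.16 with MEHP, against -0.87, -0.44, -0.01 and 0.12 (2.38 ± 0.25, limma adjusted p = 3.52e-05); its probe lies on the plus strand at chr20:20822443-20822502 of rn4. RGD1564550 was at 2.22, 2.51, 2.82 and 2.62, against -0.15, 0.14, 0.38 and 0.56 (2.37 ± 0.24, adjusted p = 3.52e-05), with its probe at chr10:79284381-79284440. The MEHP arrays of both lay more than 1 unit above every control.

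Seen over the whole study, these 222 genes were not raised with the parent diester. Their median level was 1.06 on MEHP arrays, -0.02 on DEHP arrays, 0.14 on TOTM arrays, 0.82 on EHO arrays and 0.03 on control arrays. With MEHP, 221 of the 222 were above their DEHP mean, against 9575 of all 23901 genes tested. The 222 were chosen for a rise with MEHP, so that count follows largely from the choice. Array medians ran between 0.97 and 1.14 with MEHP and between 0.64 and 0.90 with EHO, against -0.03 and 0.08 as the lowest and highest control; with 1 slide to a group, slide effects cannot be told apart from these. DEHP, TOTM and EHO levels of the set are given as a description without a test.

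**Figure D5:**
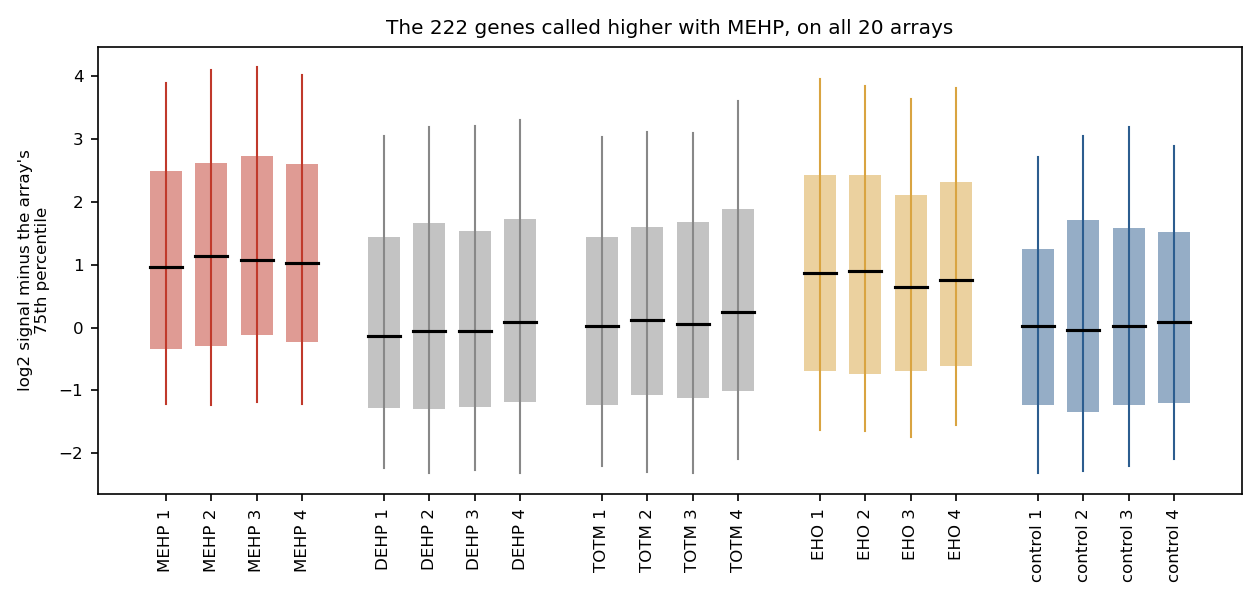
Levels of the 222 genes that rose with MEHP on all 20 arrays (log2 signal minus the 75th percentile of the array), with the median as a black line, the box over the middle 50% and the thin line over the 10th to the 90th percentile. MEHP arrays have medians of 0.97 to 1.14 and EHO arrays of 0.64 to 0.90, while control arrays lie between -0.03 and 0.08.

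The largest single-array shifts are given for MEHP 1 and 2, which count as 1 sample, with no test. Besides Gsta2, Cyp11b1, Star and Scarb1, the 10 genes furthest below control there included Svs5, a seminal vesicle secretory protein. Svs5 was at 1.11, 1.04, 4.27 and 2.49 with MEHP, against 4.38, 4.23, 4.69 and 4.27. Atp4b, the proton pump beta subunit, was at -2.74, -3.00, 0.43 and -1.69, against 0.21, 0.45, 0.37 and -0.03. Stc2, a stanniocalcin, was at -1.66, -1.67, 1.19 and -0.50 with MEHP, against 1.29, 1.46, 1.32 and 1.11. In each of the 3, and in Procr, the protein C receptor, MEHP 4 was also below every control and MEHP 3 was within the control range. Zp2, an egg coat protein, was at -3.82 and -4.53 on MEHP 1 and 2, against 1.35 and 1.14 on MEHP 3 and 4, but control 1 was also low, at -3.09.

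Upward shifts on those arrays included most of the called genes above and a few others. Dusp8, a MAP kinase phosphatase, was at 5.15, 5.74, 2.71 and 4.89 with MEHP, against 4.02, 1.93, 4.17 and 3.75, and Msl3l2 at 2.14, 2.38, -0.56 and 1.78, against 0.52, -0.75, 1.15 and 0.47. For both, MEHP 3 and control 2 were the lowest pair of arrays. At least 4-fold below the control mean were 23 genes on MEHP 1 and 27 on MEHP 2, against 9 on MEHP 3 and 5 on MEHP 4; single control arrays, set against the mean of the other 3, had 3 to 24.

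The authors' deposited table lists 3827 probes (9.33% of 41012) at p under 0.01 for MEHP, 2186 higher and 1641 lower. The 227 called here are genes, not probes, at an adjusted p under 0.05 in limma, so the 2 counts are not alike in unit or threshold. The authors' deposited table holds 74 of the 227 called genes (32.6%), each in the same direction, and these are 1.93% of the probes it lists. Its signed folds lie nearest to MEHP 1 and 2. Over 3627 listed probes with values on all 8 arrays, the median gap to the authors' deposited fold was 0.07 on the log2 scale for MEHP 1 and 2, 0.55 for MEHP 3 and 0.32 for MEHP 4, and the direction was shared by 100% of the probes on MEHP 1 and 2, 36.2% on MEHP 3 and 78.7% on MEHP 4.

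For Star the authors' deposited table gives -9.9, where MEHP 1 and 2 were 10.3-fold, MEHP 4 3.0-fold and MEHP 3 1.07-fold below control. For Cyp11a1 the authors' deposited table gives -5.1, where the folds were 5.31 on MEHP 1 and 2, 1.57 on MEHP 4 and 1.10 on MEHP 3. For Tm7sf2 the authors' deposited table gives -3.8, where the folds were 3.96, 3.29 and 1.21 on the same arrays. By list, the authors' deposited table holds 16 of 24 fetal Leydig markers, 8 of 10 mevalonate and 7 of 15 squalene pathway genes as lower and none as higher. It holds 6 of 24 Sertoli cell markers as higher and none as lower. Over all 41012 probes, 2186 were listed higher and 1641 lower. Other lists also leaned 1 way. Fatty acid oxidation had 12 of 32 genes lower, glutathione transferases 8 of 20 and erythroid genes 6 of 16, with none higher. Gonocyte genes had 6 of 21 higher and 1 lower. Which arrays entered the authors' test is not stated in the sources used here.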

How the data were processed

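RNA of fetal testis pools was measured on 1-colour Agilent rat arrays with probe coordinates on rn4, per the file headers. The deposited intensity is the processed signal of Agilent Feature Extraction 9.5.3.1, per the file headers (9.5 in the submitters' processing notes), already background-subtracted on each array and not scaled between arrays. For every probe it lists, the table that the authors deposited gives a score, the signed fold (ratio) against control, and a p-value; the test behind that p-value is not given in the sources used here.

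From the deposited intensity, spots marked as outliers were set aside, log2 values were taken, and the 75th percentile of each array over all non-control spots was subtracted. Probes entered if all arrays of 1 or more groups showed them well above background (28133 of 41012 probes), and the brightest probe stood for each gene name (24221 names, of which 23901 had values in both groups). Symbols came from RefSeq for 10768 probes matched by accession. limma 3.58.1 in R 4.3.3 (with the data.table package, version 1.17.8) fitted 5 group means over 19 samples, with 14 residual degrees of freedom and 2.53 prior ones, followed by Benjamini-Hochberg adjustment. The number of arrays limits the precision. Nothing states which litters or dams the replicates came from, so p-values measure the spread between these samples. Replicate numbers do not pair the samples.

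The members and gene lists were chosen with earlier results of these data known. Genes are named by a rule: every called gene with a symbol that was lower, the 16 largest rises with a symbol and separate arrays, the largest differences in each list, a fixed set of Leydig, Sertoli and germ cell genes, the largest shifts on MEHP 1 and 2, the 2 largest rises without a symbol, and called genes with further probes. Some genes under this rule are not reported here. LOC309949 falls under no part of it and was chosen after its values were seen. Leaving out MEHP 3, or MEHP 3 and 4, follows from their known smaller fall in Leydig cell genes and is no independent evidence. Alternatives covered background correction, scaling, filters, probes, outlier spots, variance model, groups in the fit and single arrays; 1 percentile setting was added after the data were seen. Steps were tested on simulated data.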

Additional observations from a re-analysis of the deposited data

Results flagged for a closer look

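Among 91 named genes with 4 control values, 4 had 1 control array far from the other 3, where chance gives about 1 in 20. The number flagged was thus no larger than chance gives. Akr1b7 was at -1.82 on control 2, Cpt1b at 2.70 on control 2, Ephx1 at 1.82 on control 2 and Zp2 at -3.09 on control 1. Of these, 3 lie on control 2, the array closest to MEHP 3, and MEHP 3 was at -2.09 for Akr1b7, 2.66 for Cpt1b and 1.60 for Ephx1. The cause was not tested.

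The genes that rose with MEHP were also above control on arrays outside the comparison: their median level was 0.82 on EHO arrays, against 0.03 on control arrays. Slide and compound cannot be told apart.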

How the results depend on the processing

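Of 28 other settings, the number of genes called (227, 97.8% higher) changed by more than 1.5 times under normexp with quantile normalization (368; 307 higher, 61 lower, 83.4% higher), median scaling (93; 92 and 1), a fit of MEHP and control arrays only (116), array weights (1319; 555 and 764), a 2-fold minimum (95) without MEHP 4 (146) and without MEHP 3 and 4 (143; 80 and 63). Leaving out 1 array gave 146 (without MEHP 4) to 245 (without MEHP 1). Quantile normalization alone gave 334 (87.4% higher). Median scaling moved the median of all genes to 0.11, against -0.06. The fit with the replicate block called 270; replicates share only a number, with correlations of 0.49, -0.17, -0.61 and 0.13 between same-numbered arrays, and not every array correlated best with its own number. Over probes above background on 8 arrays the ratio of MEHP 1 and 2 was 1.18 instead of 0.90. Differences that reversed, all of uncalled genes, were Nr5a1 (0.069) and Srebf2 (0.029) under normexp, Hbe1 (0.007) and Nr2f2 (0.077) under median scaling, Hbe1 (0.15) with array weights, and Cd36 (0.15), Ephx1 (0.042), Hbe1 (0.11), Hsd3b2 (0.067) and Insl3 (0.27) without MEHP 1 and 2. Causes were not tested. Scd lost its call under 5 settings, Oaz1 under 6, Rdh11 under 10, Gdf6 under 11 and Actc1 under 4. Calls were gained by Sc5d under 14 settings, Gsta2 and Mvd under 13, Dhcr7 under 10, Tm7sf2 under 9, Ebp and Idi1 under 7, Star, Cyp51 and Pax2 under 6 and Hmgcs1 under 5; other named genes gained a call under 1 to 4 settings or under none. Very bright spots of the control slide and probes near background limit what can be said of Cyp17a1, Insl3 and Lhcgr.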
